A study of Mus musculus with 6 samples.

Results

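The genes described here are the 8 that encode angiotensinogen (Agt), the enzymes renin (Ren1), angiotensin-converting enzyme (Ace) and glutamyl aminopeptidase (Enpep), and the angiotensin receptors Agtr1a, Agtr1b, Agtr2 and Mas1. They were selected by name from the 55376 genes of the deposited count table, and all 8 were found there. The list was proposed with the genotype comparison of these same retinas already known, so the genotype differences of its members are given as a description. How many members the fits over all genes called is stated once beside the share of all genes, and neither these calls nor the differences are evidence independent of the choice of genes.

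In the renin-angiotensin system, renin cuts angiotensinogen to angiotensin I, and angiotensin-converting enzyme trims this peptide to angiotensin II. Angiotensin II acts on the type 1 receptor, which mice carry as the paralogs Agtr1a and Agtr1b, and on the type 2 receptor, encoded by Agtr2, while Mas1 encodes a receptor for the shorter angiotensin (1-7). Glutamyl aminopeptidase shortens angiotensin II to angiotensin III. The system is best known for the control of blood pressure, and its parts are also made locally in the eye.

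Whole retinas of 3 wild-type (WT) and 3 Wfs1-/- (Wfs1-KO) mice were profiled by RNA-seq at post natal day 240. The mutant animals carry a targeted deletion of exon 8 of Wfs1, the gene of the endoplasmic reticulum protein wolframin, in every cell of the body, and the labels list no treatment. The labels give the strain of both groups as C57x129, and the methods name a C57BL/6 J background. The methods give 3 mice per genotype, and the labels do not give the sex.

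Total counts were between 17916885 and 101334381 per retina. The 3 Wfs1-KO retinas had 0.900 to 11.5 CPM (counts scaled to the size of each library) of Wfs1, and the 3 WT retinas had 61.4 to 69.9 CPM. Wfs1-KO replicate 2 stood apart from the other 5 retinas, with a mean Pearson correlation to them across genes of 0.918 against 0.962 to 0.971 for each of the others, so values without it are given where they matter. WT replicate 3 had 4 counts of Xist, which is transcribed from the inactive X chromosome of females, and 1137 counts of the Y-linked Ddx3y. Each other retina had at least 10583 counts of Xist and at most 2 of Ddx3y. Scaled for depth, these 5 retinas were not alike in Xist. It had 159 and 417 CPM in WT replicates 1 and 2, and 771, 749 and 1137 CPM in Wfs1-KO replicates 1, 2 and 3. All markers listed for Müller glia (8), ganglion cells (7) and amacrine cells (6), which are cells of the retina, passed the filter on low counts.

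The coding sequences show what 2 of these genes make and how far a pair of them can be told apart. The codons of angiotensin I lie in exon 2 of the 5 exons of Agt, on the minus strand of mm10 at chr8:124564450-124564479, as codons 30 to 39 of the GENCODE M21 transcript. They are shown because every active peptide of the system is cut from this stretch, with the 8 codons of angiotensin II in capitals.
Agt angiotensin I codons: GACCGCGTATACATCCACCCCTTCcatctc

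The type 1 receptor genes Agtr1a and Agtr1b both have 1080 coding bases, of which 99 differ, so that 90.8% of the bases and 93.9% of the encoded residues are identical. The longest stretch without a difference is 66 bases, and the authors' counting could leave reads of such stretches unassigned or split them. The 90 bases that differ most, at codons 325 to 354, hold 20 of the differences and are shown with the differing bases in capitals. The Agtr1a stretch lies in exon 3 of 3 on the plus strand at chr13:30381926-30382015, and the Agtr1b stretch in exon 2 of 2 on the minus strand at chr3:20315379-20315468.
Agtr1a: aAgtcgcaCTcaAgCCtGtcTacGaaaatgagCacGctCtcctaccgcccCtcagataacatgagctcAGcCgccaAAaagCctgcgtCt
Agtr1b: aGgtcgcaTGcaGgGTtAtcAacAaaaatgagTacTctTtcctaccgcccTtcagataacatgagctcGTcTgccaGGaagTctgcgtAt

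The angiotensin system genes spanned a wide range of levels in the retina, from angiotensinogen, near the middle of all genes tested, to genes with no counts. Levels were compared between genes per length, as RPKM, the CPM of a gene per kilobase of its exons. In WT retinas Agt had 4.13 ± 0.47 RPKM (SD, n = 3), above 48.5% of the 18547 genes that passed the filter on low counts, whose median level was 4.51 RPKM. Ace followed with 1.67 ± 0.069 RPKM and Enpep with 0.480 ± 0.099 RPKM (SD, n = 3 each), and none of these 3 ranges over retinas overlapped. Agtr2 and Agtr1a had 0.162 ± 0.073 and 0.117 ± 0.036 RPKM in WT (SD, n = 3 each), and their ranges overlapped, so their order in WT is not settled by these retinas. Agtr1a lay above 4.53% and Agtr2 above 6.83% of the genes tested.

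In Wfs1-KO retinas the order of these 5 genes differed by the place of Agtr1a, whose mean was the lowest of the 5 in WT, with a range that overlapped that of Agtr2. At 0.726 ± 0.21 RPKM (SD, n = 3) its mean stood above that of Enpep and above Agtr2 with 0.105 ± 0.011 RPKM, the latter without overlap. Its range overlapped that of Enpep, which had 0.447 ± 0.16 RPKM. Agt remained first with 4.31 ± 1.83 RPKM and Ace second with 2.04 ± 0.18 RPKM, and these did not overlap each other or the genes below them.

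**Figure D1:**
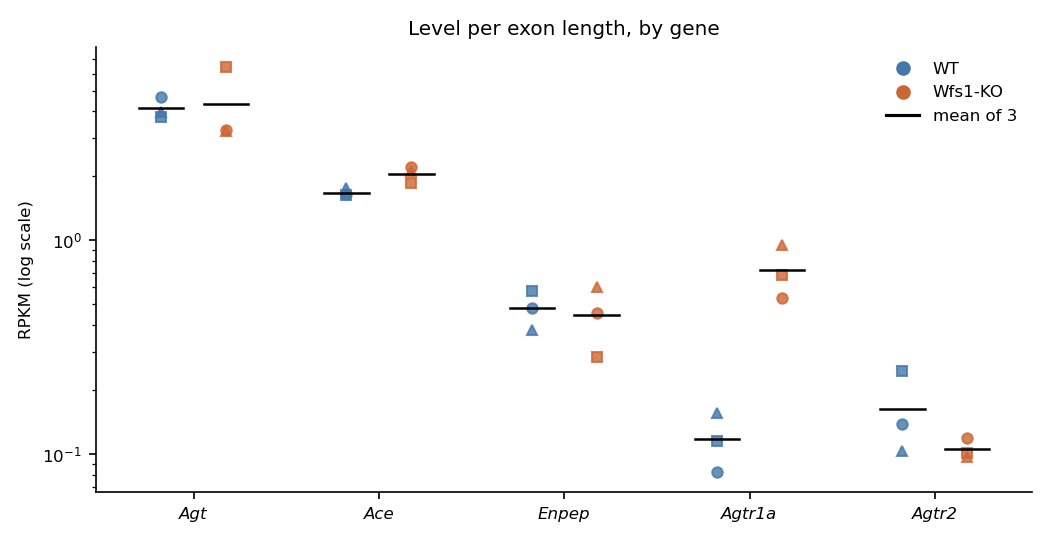
Level per exon length of the 5 more abundant angiotensin system genes, in RPKM on a log scale, with 1 point per retina (circle, square and triangle for replicates 1, 2 and 3) and a bar at the mean of 3. Agt lay highest in both genotypes, and Agtr1a was level with Agtr2 in WT and above it in every Wfs1-KO retina.

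The gene of the type 1a receptor, Agtr1a (ENSMUSG00000049115.15, chromosome 13 of mm10, 30336441 to 30382867, plus strand), was higher in every Wfs1-KO retina. It had 0.181, 0.252 and 0.341 CPM in WT replicates 1, 2 and 3, and 1.18, 1.52 and 2.09 CPM in Wfs1-KO replicates 1, 2 and 3. The lowest Wfs1-KO retina was thus above the highest WT retina, and Wfs1-KO replicate 2, the retina that stood apart, lay between the other two. The means were 0.258 ± 0.080 CPM in WT and 1.60 ± 0.46 CPM in Wfs1-KO retinas (SD, n = 3 each). The log2 fold change of mutant over WT was 2.68 (standard error, SE, 0.45), a 6.39-fold difference, 2.74 (SE 0.46) without Wfs1-KO replicate 2 and 2.86 without WT replicate 3, the retina with Y-linked counts.

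These values rest on few reads. Agtr1a had 12, 12 and 6 counts in the WT retinas and 122, 64 and 92 in the Wfs1-KO retinas. All 6 counts were even, and in the whole table between 69.0% and 77.5% of counts from 1 to 20 were even in each retina (how mates of a pair were counted is not given in the sources used here). Halved, as if each pair gave 2 counts, the genotype sums were 15 in WT (95% exact Poisson interval 8.40 to 24.7) and 139 in Wfs1-KO retinas (117 to 164), intervals that cover counting error only. In the filter on low counts, which asked for about 0.220 CPM in at least 3 retinas, Agtr1a was above this level in 3 of 3 mutant and 2 of 3 WT retinas.

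**Figure D2:**
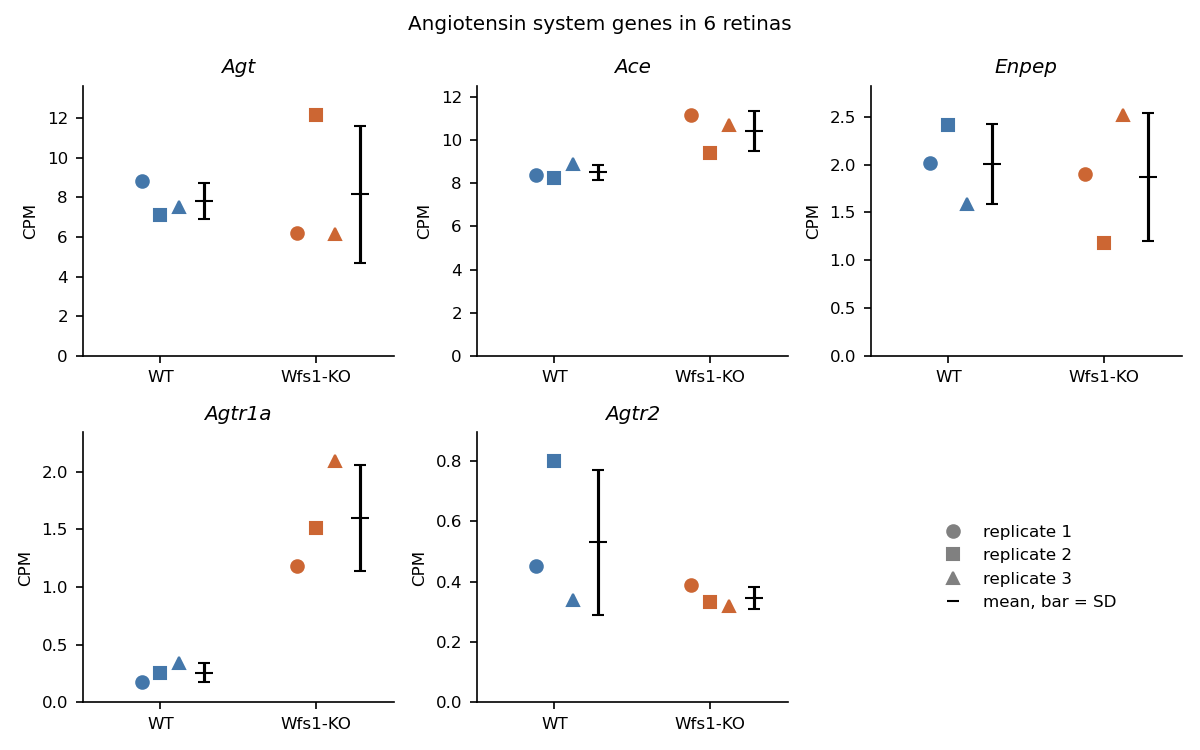
CPM of the 5 angiotensin system genes that passed the filter on low counts, with 1 point per retina by genotype (blue WT, orange Wfs1-KO) and the mean with its SD beside each group. The genotypes were apart for Agtr1a and, by less, for Ace, and the Wfs1-KO replicate 2 retina set the upper end of Agt.

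The paralog Agtr1b (chromosome 3, 20314473 to 20367177, minus strand) had 0 counts in all 6 retinas. A count of 0 allows up to 3 counts here, which is 0.0291 to 0.170 CPM depending on the depth of the retina, so Agtr1a was the type 1 receptor gene detected in these libraries.

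Agtr2 (ENSMUSG00000068122.10, chromosome X, 21484544 to 21489164, plus strand), the gene of the type 2 receptor, did not separate the genotypes. WT replicates 1, 2 and 3 had 0.452, 0.799 and 0.341 CPM, and it stood at 0.388, 0.332 and 0.318 CPM in Wfs1-KO replicates 1, 2 and 3. WT replicate 2 was the highest, and WT replicate 3 lay within the mutant range. The log2 fold change was -0.63 (SE 0.48), -0.21 without WT replicate 2 and -0.86 without WT replicate 3. Within each retina the level per length of Agtr1a was 0.597, 0.471 and 1.49 times that of Agtr2 in WT replicates 1, 2 and 3, and 4.55, 6.82 and 9.81 times in the Wfs1-KO retinas.

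Mas1 (chromosome 17, 12841079 to 12868143, minus strand) was close to the limit of detection, with 4, 1 and 0 counts in WT and 9, 0 and 6 counts in Wfs1-KO replicates 1, 2 and 3. The genotypes overlapped, and a difference was not detectable at this depth.

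Agt (ENSMUSG00000031980.9, chromosome 8, 124556534 to 124569706, minus strand), the source of all angiotensin peptides, did not differ in 1 direction among the Wfs1-KO retinas. WT replicates 1, 2 and 3 had 8.82, 7.12 and 7.49 CPM, and it stood at 6.18, 12.1 and 6.13 CPM in Wfs1-KO replicates 1, 2 and 3. Wfs1-KO replicates 1 and 3 lay below every WT retina, and Wfs1-KO replicate 2 above every one. The log2 fold change was 0.06 (SE 0.32), and without Wfs1-KO replicate 2 it turned to -0.35 (SE 0.19).

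Renin, which starts the cascade, was at the limit of detection. Ren1 (chromosome 1, 133350510 to 133360325, plus strand) had 2 counts in Wfs1-KO replicate 1 and 0 in the other 5 retinas, all under the floor of 3 counts, and no fold change is given.

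Ace (ENSMUSG00000020681.14, chromosome 11, 105967945 to 105989964, plus strand), whose product makes angiotensin II, was slightly higher in every Wfs1-KO retina. WT replicates 1, 2 and 3 had 8.36, 8.26 and 8.91 CPM, and it stood at 11.2, 9.40 and 10.7 CPM in Wfs1-KO replicates 1, 2 and 3. The groups did not overlap, and the log2 fold change was 0.29 (SE 0.19), or 0.36 (SE 0.17) without Wfs1-KO replicate 2. An exon of Gm11651 overlaps Ace in the annotation and had 0 counts in all 6 retinas. Relative to Ace, the level of Agt per length was 2.85, 2.33 and 2.27 times as high in WT replicates 1, 2 and 3 and 1.49, 3.49 and 1.55 times in Wfs1-KO replicates 1, 2 and 3, so this ratio was lower than in every WT retina in Wfs1-KO replicates 1 and 3 but not in 2.

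Enpep (ENSMUSG00000028024.14, chromosome 3, 129269175 to 129332720, minus strand), which encodes an aminopeptidase well known from pericytes, overlapped between genotypes. WT replicates 1, 2 and 3 had 2.02, 2.42 and 1.59 CPM, and it stood at 1.90, 1.18 and 2.52 CPM in Wfs1-KO replicates 1, 2 and 3. The Wfs1-KO retinas held both the lowest and the highest value. The log2 fold change was -0.11 (SE 0.38), and 0.11 (SE 0.29) without Wfs1-KO replicate 2.

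Of the 8 genes, 5 passed the filter on low counts. With edgeR's quasi-likelihood test, 0 of these 5 had an adjusted p under 0.05, against 0.0108% of all genes tested, and 1, Agtr1a, had an unadjusted p under 0.05, against 2.81%. With Wfs1-KO replicate 2 left out the count was again 0 of 5, against 0.125% of genes. With DESeq2, the tool named in the study's methods, Agtr1a was the 1 gene called of the 6 that received an adjusted p, against 0.19%. That share is from a new run on the deposited counts, which called 47 genes. The study itself reported more genes at this threshold. Agtr1a and Ace had Wfs1-KO retinas that were all above WT, which held for 5.01% of all genes tested. Since the list was proposed with this contrast in view, nothing is read from these counts.

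The other genes of the pathway, 52 in 4 lists, were tested in the same fit, and 37 passed the filter. With edgeR, 0 of the 37 had an adjusted p under 0.05 and 1 had an unadjusted p under 0.05. With DESeq2, 0 of 42 passed either threshold. The median log2 fold change of the 37 was 0.07, and that of all genes tested was 0.02. The Wfs1-KO retinas were all above WT for 5 of the 37 and all below for 2, against 5.01% and 3.94% of all genes tested.

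Among the other angiotensin peptide enzymes and receptors, 13 of 18 passed the filter, 0 passed the adjusted threshold, and 9 had a positive log2 fold change, with a median of 0.16. Nln, which encodes neurolysin, a peptidase that cleaves angiotensin I to angiotensin (1-7), had an unadjusted p of 0.04996 (adjusted p = 0.979, edgeR). Its level was 7.67 ± 0.43 CPM in WT and 10.7 ± 1.6 CPM in Wfs1-KO retinas (SD, n = 3 each), for a log2 difference of 0.48 (SE 0.20), and every Wfs1-KO retina was above every WT retina. Atp6ap2, the gene of the prorenin receptor and a part of the vacuolar proton pump, was abundant at 221 ± 13.9 CPM in WT and 241 ± 16.3 CPM in Wfs1-KO retinas (SD, n = 3 each; log2 fold change 0.12, SE 0.16, adjusted p = 0.979, edgeR).

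Ctsd, the lysosomal protease cathepsin D, had a log2 fold change of 0.80 (SE 0.54) that became -0.20 without Wfs1-KO replicate 2, the retina with 639 CPM against 156 to 213 CPM in the other 5. Ctsa and Dpp3, further peptidases of this list, had log2 fold changes of 0.16 and 0.19. Anpep, the aminopeptidase that shortens angiotensin III and a gene chosen after its values were seen, had the largest difference of the 37, with a log2 fold change of 1.56 (SE 0.95) that became -0.12 without Wfs1-KO replicate 2. The Ctsg and Mrgprd genes had 0 counts in all retinas, and the chymase and mast cell protease genes Cma1, Cpa3 and Mcpt4 had at most 6 counts in any retina.

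All 11 genes of receptor partners were tested, and none passed the adjusted threshold in edgeR (0 at an unadjusted p under 0.05, and 0 by DESeq2 at either threshold). Agtrap, whose product binds the type 1 receptor and promotes its internalization, had 72.3 ± 4.6 CPM in WT and 60.2 ± 3.6 CPM in Wfs1-KO retinas (SD, n = 3 each), for a log2 difference of -0.26 (SE 0.15, adjusted p = 0.979, edgeR), with each Wfs1-KO retina below each WT retina. Gnaq and Gna11 encode the G protein subunits through which the type 1 receptor signals. Gnaq had a log2 fold change of 0.66 (SE 0.33), with all Wfs1-KO retinas above WT, and 0.16 without Wfs1-KO replicate 2, and Gna11 had 0.12 (SE 0.17). Arrb1, one of the arrestins, had -0.09 (SE 0.22). Nox4, an NADPH oxidase at 0.244 CPM in WT and 0.464 CPM in Wfs1-KO retinas, also had every mutant value above WT.

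Of the 8 kallikrein-kinin genes, 3 passed the filter and 0 were called by edgeR or DESeq2 at either threshold. Kng1 and Kng2, which encode the kininogen precursors, had 0 counts in all retinas. Klkb1, plasma kallikrein, had a log2 fold change of 0.93 (SE 0.48), and 0.22 without Wfs1-KO replicate 2. Cpm, a membrane carboxypeptidase that trims kinins, had 0.40 (SE 0.24), and 0.57 without Wfs1-KO replicate 2. It was then the 1 gene of this list with an unadjusted p under 0.05 (adjusted p = 0.593, edgeR). Of all 19178 genes tested in that fit, 995 had an unadjusted p under 0.05. Bdkrb2, the constitutive bradykinin receptor gene, had a log2 fold change of -0.24 (SE 0.40). Cpn1 did not pass the filter, with 0.068 CPM in WT and 0.152 CPM in Wfs1-KO retinas.

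Of the 15 aldosterone and mineralocorticoid receptor genes, 10 passed the filter and 0 were called by edgeR or DESeq2 at either threshold. Sgk1, a kinase gene induced by corticosteroids, had 495 ± 35.1 CPM in WT and 419 ± 22.4 CPM in Wfs1-KO retinas (SD, n = 3 each), with each Wfs1-KO retina below each WT retina and a log2 fold change of -0.24 (SE 0.16, adjusted p = 0.979, edgeR). The glucocorticoid receptor gene Nr3c1 had a log2 fold change of 0.04, Nedd4l 0.01 and Tsc22d3 0.07. Hsd11b1 and Hsd11b2, which encode the enzymes that interconvert active and inactive glucocorticoids, had 0.75 (SE 0.39) and 0.90 (SE 0.53) at under 1 CPM, with all Wfs1-KO retinas above WT. The aldosterone synthase gene Cyp11b2 did not pass the filter, with at most 10 counts in any retina.

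**Figure D3:**
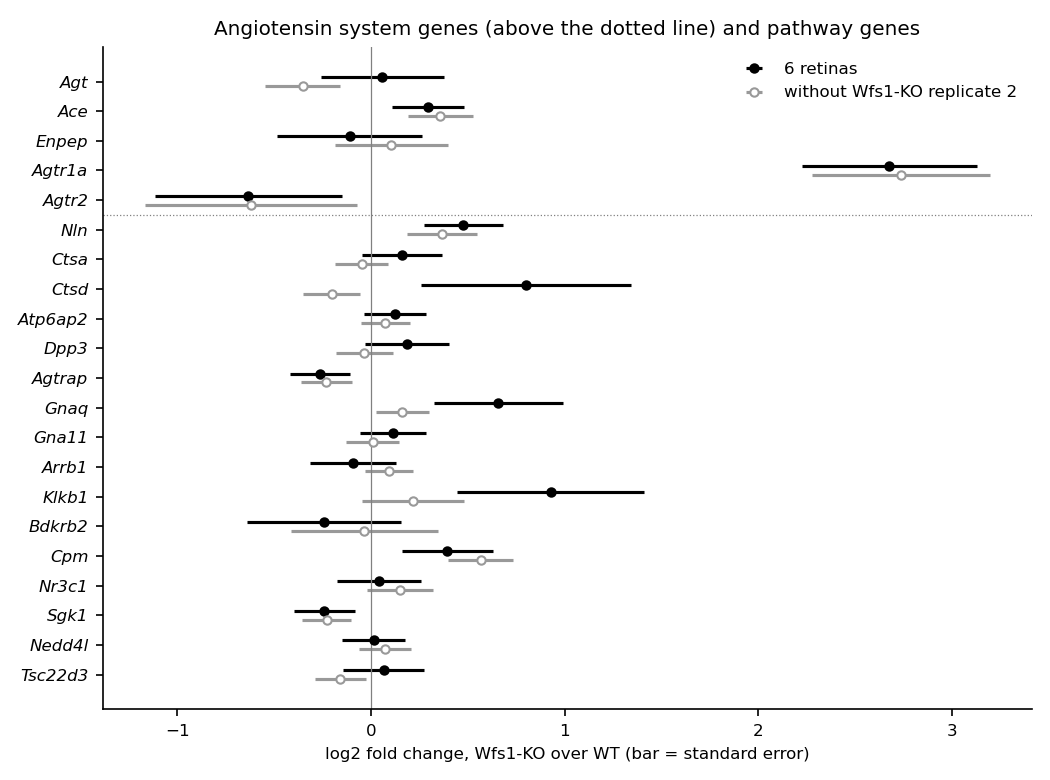
Log2 fold change of Wfs1-KO over WT with its SE, from 6 retinas (black) and without Wfs1-KO replicate 2 (open grey). The 5 tested angiotensin system genes lie above the dotted line. Below it are the tested pathway genes named for an unadjusted p under 0.05 or a high RPKM. Agtr1a stood at 2.68 and the plotted pathway genes between -0.26 and 0.93. Of those plotted, Ctsd, Gnaq and Klkb1 moved most when Wfs1-KO replicate 2 was left out. Genes named after their values were seen, such as Anpep, are not plotted.

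The summed markers of some cell types also lay apart by genotype, and their part in the difference of Agtr1a was not tested. In bulk retina, fewer cells of a type and less RNA per cell cannot be told apart. Pericytes are among the cells known to express Agtr1a, and their 8 markers summed to 51.4 to 62.9 CPM in WT and to 62.2, 69.8 and 51.5 CPM in Wfs1-KO replicates 1, 2 and 3. These ranges overlapped, 0 of the 8 had an unadjusted p under 0.05 in edgeR or DESeq2, and their median log2 fold change was 0.04. Single markers went both ways. All Wfs1-KO retinas were above WT for 1 of the 8 (Ndufa4l2) and below for 1 (Cspg4), against 5.01% and 3.94% of all genes tested. The 8 endothelial markers summed to 249 to 338 CPM in WT and 333 to 358 CPM in Wfs1-KO retinas, and the 3 tested of 4 smooth muscle markers had a median log2 fold change of 0.52 with all 6 retinas and -0.19 if Wfs1-KO replicate 2 was left out.

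The 7 markers of astrocytes and reactive glia summed to 160 to 193 CPM in WT and to 269, 656 and 216 CPM in Wfs1-KO replicates 1, 2 and 3. This sum was higher in every Wfs1-KO retina, and 5 of the 7 genes had all Wfs1-KO retinas above WT (5.01% of all genes tested). In edgeR 6 of 7 had an unadjusted p under 0.05 (2.81% of all genes) and 0 passed the adjusted threshold (0.0108%), and with DESeq2 2 of 7 passed it (0.19%). Without Wfs1-KO replicate 2, 4 of 7 had an unadjusted p under 0.05 in edgeR (995 of 19178 genes tested), and 1 passed the adjusted threshold (0.125%). This list includes Gfap, Lcn2, Edn2 and Vim, which the study named from these same retinas and which are therefore no independent evidence. The sum and Agt were highest in Wfs1-KO replicate 2, and Agtr1a in Wfs1-KO replicate 3. With 3 retinas per genotype, nothing is read from these ranks. The 8 Müller glia markers, led by Glul, summed to 5390 to 5618 CPM in WT and to 4084 to 5060 CPM in Wfs1-KO retinas. Of the 8, 1 (Glul) had an unadjusted p under 0.05 in edgeR, and 2 (Glul and Car14) had all Wfs1-KO retinas below WT (3.94% of all genes tested). Glul alone had 3108 ± 139 CPM in WT and 2319 ± 367 CPM in Wfs1-KO retinas (SD, n = 3 each). The study named Glul as lower in these same retinas, so it is no independent evidence. Glul made up a large part of the sum, which was not taken without it. The lower sum therefore does not show that the other markers were lower as a group. The sum of 6 rod markers (Pde6a, Pde6b, Gnat1, Cnga1, Nrl and Sag) was also lower in every Wfs1-KO retina, at 24887, 24984 and 25759 CPM in replicates 1, 2 and 3 against 27863 to 30302 CPM in WT. Of these 6, 0 had an unadjusted p under 0.05 in edgeR or DESeq2 with all retinas. In edgeR without Wfs1-KO replicate 2, 2 did, as did 995 of the 19178 genes tested. Their median log2 fold change was -0.18, and 2 of the 6 had all Wfs1-KO retinas below WT (3.94% of all genes tested). Gnat1, the most abundant, was 1 of these 2, at 15927 ± 1053 CPM in WT and 12280 ± 2384 CPM in Wfs1-KO retinas (SD, n = 3 each). Cnga1 and Sag went the other way in Wfs1-KO replicate 2, at 3508 and 6056 CPM against WT means of 1165 and 4604 CPM.

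The summed markers of microglia and macrophages, of pigment epithelium and choroid, and of blood were highest in Wfs1-KO replicate 2, at 184, 404 and 480 CPM. In the other Wfs1-KO retinas they summed to 29.3 to 42.7, 34.7 to 60.7 and 20.1 to 22.7 CPM, against 29.7 to 36.5, 77.3 to 112 and 12.3 to 41.2 CPM in WT. The microglia list includes Lyz2 and Cybb, which the study also named from these same retinas. Of its 8 genes, 2 had all Wfs1-KO retinas above WT (5.01% of all genes tested), and 1 of these, P2ry12, was highest in Wfs1-KO replicate 3. Lrat of the pigment epithelium list had 4.59 CPM in Wfs1-KO replicate 2, below every WT retina. Without that retina, 6 of the 10 pigment epithelium genes had an unadjusted p under 0.05 in edgeR (995 of 19178 genes tested). Their median log2 fold change was then -0.78. The log2 fold change of Agtr1a was 2.68 with Wfs1-KO replicate 2 and 2.74 without it. Lens markers, 4 of 7 tested, summed to 1.14 to 1.51 CPM in WT and 1.75 to 2.76 CPM in Wfs1-KO retinas. The 7 ganglion cell and 6 amacrine cell markers had median log2 fold changes of -0.02 and 0.02, and 5 of the 6 mast cell markers did not pass the filter.

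**Figure D4:**
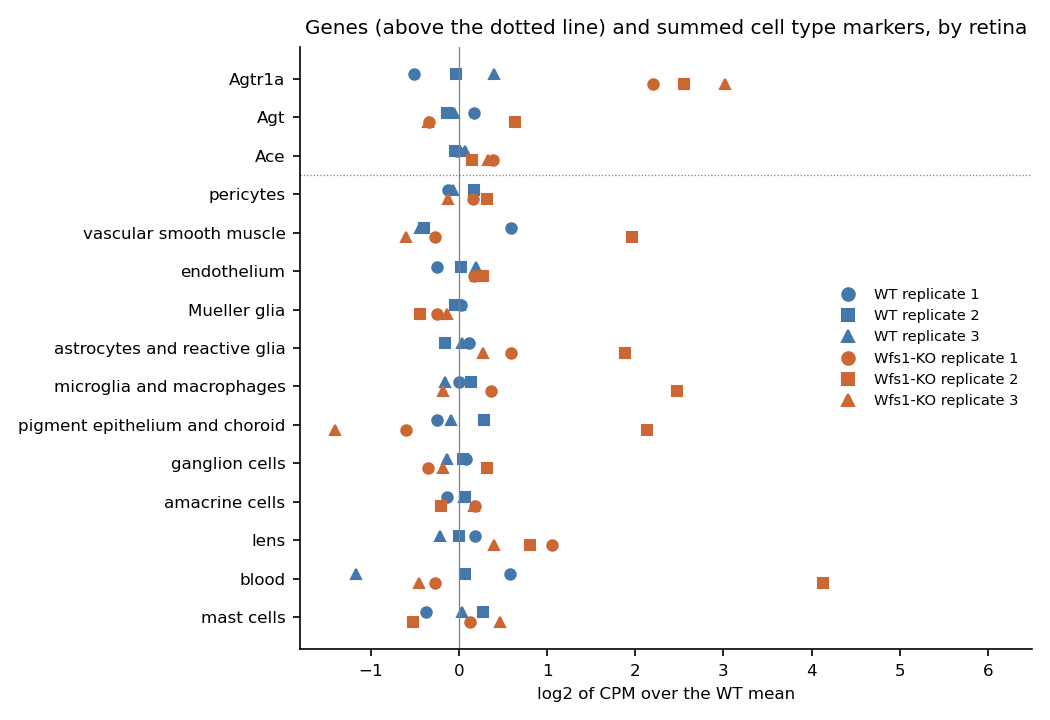
Log2 of the CPM over the WT mean for Agtr1a, Agt and Ace (above the dotted line) and for the summed markers of 12 cell types, with 1 point per retina (blue WT, orange Wfs1-KO). The 3 Wfs1-KO retinas lay at 2.20 to 3.02 for Agtr1a, while the blood, microglia, pigment epithelium and reactive glia sums were highest in Wfs1-KO replicate 2.

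The genes with the most similar pattern over the 6 retinas were found by the root mean square difference of log2 CPM, each gene centred on its own mean, among 15105 genes with at least 50 counts on average. For Agtr1a these were Gm9869 (difference 0.30), Gm11992 (0.57) and Tecta (0.62), against a spread of Agtr1a itself of 1.28. For Agt they were Mrps23, Dynll1 and Apip (0.040 to 0.050, own spread 0.34), for Ace Rnf144b, Zc3hav1 and Osbpl3 (0.036 to 0.064, own spread 0.17), and for Enpep Csgalnact1, Arrdc3 and Tmeff1 (0.070 to 0.084, own spread 0.36). This likeness over 6 retinas is a description and includes the genotype difference. The 3 genes most like Agtr1a had log2 fold changes of 2.52, 1.53 and 3.21. Agtr1a itself, at 51.3 counts on average, reached the cut of 50 only through the Wfs1-KO retinas, with 12, 12 and 6 counts in WT.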

How the data were processed

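The series holds retinal RNA-seq from 3 mice of each genotype. The authors deposited raw counts of reads per gene, without normalization, with each gene's exon length. The submitters' processing notes name Trimmomatic 0.39, STAR 2.5.3a, featureCounts 1.6.4 and mm10. The table has 8 library columns. Columns were matched by name (C for control, W for Wfs1, and the replicate number), and 2 columns without a listed sample were left out. The Wfs1 level was not used for this match. Whether counting used strand is not given in the sources used here.

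The main test was the quasi-likelihood test of edgeR 4.0.16, run in R 4.3.3 on TMM-scaled counts with genotype alone in the model. Genes were filtered with filterByExpr, and p-values were adjusted by Benjamini-Hochberg over all genes tested. These p-values set the genotype difference against the variation between retinas of the same genotype, estimated in part from all genes together. Standard errors are the size of the log2 fold change divided by the square root of F. CPM used TMM library sizes, and RPKM divided CPM by exon length. Total counts of 17916885 to 101334381 put the floor of 3 counts at 0.0291 to 0.170 CPM (counting error only, with counts taken as independent). Alternatives were DESeq2 1.42.0, 2 other normalizations (upper quartile and RLE), the unfiltered table, a replicate block and each retina left out. Halved counts, and DESeq2 without Wfs1-KO replicate 2, were added after seeing the data. The members and lists were chosen with earlier results of these data known. Named pathway genes are those with an unadjusted p under 0.05 and the 4 with the highest RPKM of each list, and the 3 most alike genes are given for members with at least 50 counts on average. Genes without overlap, Anpep, and genes near the limit of detection were named after their values were seen. Coordinates and transcripts are from GENCODE M21, whose start and end matched the table for 8 of 8 genes. 1 marker gene is not reported here and is in no sum.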

Additional observations from a re-analysis of the deposited data

How the results depend on the processing

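The log2 fold change of Agtr1a was between 2.43 and 2.86 over 13 alternatives, and those of Ace (0.24 to 0.36) and Agtr2 (-0.86 to -0.21, 12 alternatives) also kept their sign. Agt ranged from -0.35 to 0.22, negative in 4 of 13, and Enpep from -0.38 to 0.11, positive in 3 of 13. The count of listed pathway genes past the threshold was 0 in all 13, and the order of the 8 genes by RPKM was the same with unscaled library totals and without Wfs1-KO replicate 2.

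The count of genes past the threshold in the whole table, 2 in edgeR, was 47 with DESeq2, 9 without the low-count filter and 94 with DESeq2 without Wfs1-KO replicate 2. With each retina left out it ranged from 0 (without any 1 of the 3 WT retinas) to 24 (without Wfs1-KO replicate 2), and was 1 without Wfs1-KO replicate 1 or 3. With the replicate block it was 1, with a log2 fold change of Agtr1a of 2.63. Same-numbered retinas are different mice, and their deviations from the group means correlated at -0.23, -0.11 and 0.078, so the numbers were not taken as pairs. Depth limits Ren1, Agtr1b and Mas1, which had at most 9 counts in any retina, and Agtr1a in WT. The cause of these moves was not tested.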

Other observations

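Around Agtr1a on chromosome 13, 18 tested genes have their first listed exon within 2 Mb of its start, a distance chosen after seeing the data. Their log2 fold changes of Wfs1-KO over WT lay between -1.82 and 1.27, with a median of 0.14, against 2.68 for Agtr1a. In edgeR's quasi-likelihood test 0 of the 18 had an unadjusted p under 0.05, and for 0 of them did the Wfs1-KO and WT retinas lie apart in either direction. The transcription factor genes Sox4, Irf4, Foxq1, Foxf2 and Foxc1 are among the 18.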
